A study of Mus musculus with 15 samples.

Results

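Subcutaneous tumors grown from a mouse line of large cell neuroendocrine carcinoma (LCNEC), a high-grade lung cancer, were compared with normal mouse lung across all genes. The comparison takes, by their labels, 6 of the 15 samples of the series: tumors 312, 319 and 321 (46LCNEC_allo) and the lungs CT3, CT4 and CT5 (Lung), 3 samples in each group. The 46LCNEC line was derived from tumors that arose in QKO (quadruple knockout) mice after adenovirus carrying Cre under the CMV promoter was given into the airway, so the cell in which recombination took place is not defined by the promoter. QKO mice carry a null Rbl1 together with floxed alleles, among them Rb1 and Trp53. The line grew as an adherent monolayer, and its cells were injected with Matrigel under the skin of immunocompetent QKO mice, which makes the grafts syngeneic. Lung came from littermates of the graft hosts, and no treatment is given for either group. The age and sex of the animals are not given in the sources used here. All 3 tumors come from 1 line, so they show how that line varied between grafts and not how LCNEC varies between mice. Each tumor is a mixture of grafted cells and host stroma from the skin site, whereas Lung holds the cell types of the whole organ. In such bulk samples, fewer cells of a type and less RNA per cell cannot be told apart. The p-values measure the spread between these samples only. For orientation, the cultured line (46LCNEC_cell, 3 dishes) and allografts of a small cell lung cancer line (57SCLC_allo, 3 tumors) are set beside the main comparison where a result turns on them. The small cell line came from other QKO mice, given adenovirus with Cre under the K5 promoter, so tumor type, line and Cre driver cannot be told apart in that comparison.

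Normal lung is lined by flat alveolar type I cells, which exchange gas, and by type II cells, which make surfactant, while club and ciliated cells line the airways. NKX2-1 and FOXA factors hold this epithelial identity, TBX4 and TBX5 mark lung mesenchyme, and a dense capillary bed surrounds the alveoli. Rb proteins restrain E2F factors, which drive genes for DNA replication. Genes of mitosis are switched on later in the cycle, through CHR elements read by MuvB complexes and through CCAAT elements. Neuroendocrine carcinomas are defined by granins, synaptic vesicle proteins and neural factors, and LCNEC shows them less evenly than small cell lung cancer.

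Values are counts of reads per gene divided by a size factor per sample, called normalized counts here. They are not divided by gene length, so levels are compared between samples and not between genes. A change is the difference of group means of log2(normalized count + 1), a log2 fold change with its standard error (SE), tested with limma. A gene was called where the Benjamini-Hochberg adjusted p was at most 0.01 and the change was at least 2-fold. Of 18033 genes tested, 2425 (13.4%) were called higher in the tumors and 3987 (22.1%) were called lower, against which the counts of each gene list below are to be read. The median log2 fold change over all genes tested was -0.14 and the median SE was 0.22. Reads counted per sample ranged from 21917273 to 35265695, so 3 reads, taken as the detection floor, correspond to between 2.24 and 3.97 normalized counts. A gene at or under this floor in every sample of a group is reported with a lower bound of its fold, and floors cover counting error only. Such a gene entered the test only through the other group, so the filter fixed its direction. The tumors varied more than the lungs, with a median coefficient of variation of 16.4% against 8.96%. Tumor 321 stood apart from tumors 312 and 319 in lymphocyte and MHC class II transcripts, and the values that rest on it are given with and without it. Ribosomal Rn18s-rs5 took between 6.69% and 11.5% of tumor reads and between 1.82% and 2.04% of lung reads. Several genes that every cell uses, B2m among them, are listed at 0 in all 15 samples, and for such genes nothing beyond the listing is said.

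**Figure D1:**
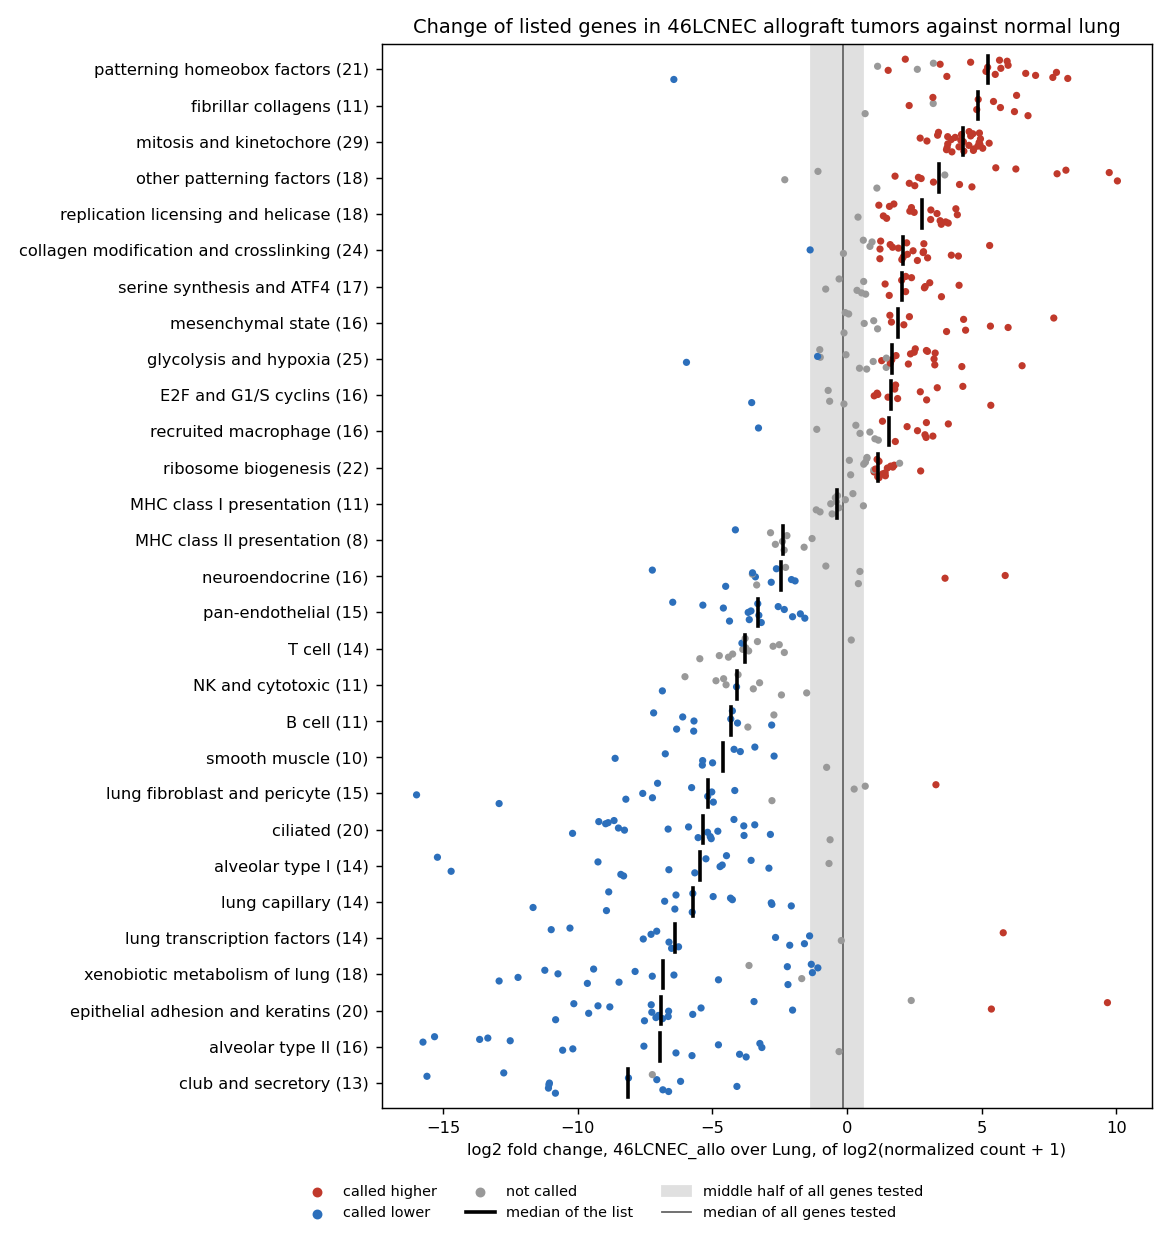
Log2 fold changes (x axis, 46LCNEC_allo over Lung) of the genes in 29 lists (y axis, number of genes tested in parentheses), with 1 point per gene coloured by its call, a black bar at the median of each list and a grey band for the middle 50% of all genes tested. Lists of patterning factors, fibrillar collagens and mitosis lie to the right of the band, and lists of lung epithelium and lung capillaries lie to its left.

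The transcripts that define alveolar epithelium were almost absent from the tumors. Of 16 alveolar type II genes tested, 15 were called lower, 0 were called higher, and the median log2 fold change was -6.95. Sftpc, the gene of surfactant protein C, counted 7.95, 2.11 and 5.53 in tumors 312, 319 and 321 and 58062, 76025 and 85865 in lungs CT3, CT4 and CT5. The mean was thus 14115-fold higher in Lung, and every lung lay far above every tumor. Sftpa1, the gene of surfactant protein A, was at 0, 0 and 1.11 in the tumors and at 61757, 72148 and 78514 in the lungs, at least 17819.7-fold lower in the tumors. Sftpd, which encodes the collectin surfactant protein D, was at 0 in each tumor and averaged 10485 ± 2056 (SD, n = 3) in Lung. Slc34a2, a phosphate transporter of type II cells, was at or under the floor in each tumor and at least 13664-fold lower. Fabp5, a fatty acid carrier also made by many other cells, was the 1 member not called (log2 fold change -0.30, SE 0.42, adjusted p = 0.56).

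Alveolar type I markers fell likewise, 13 of 14 with a median of -5.45. Cldn18, a tight junction claudin, was at 0 in all 3 tumors and at 20948, 29283 and 30773 in the lungs, at least 6795-fold lower. Ager, the receptor RAGE and the classic type I marker, averaged 103 ± 20.8 in the tumors against 32563 ± 5243 in Lung, a log2 fold change of -8.30 (SE 0.19, adjusted p = 2.53e-06). Hopx, a homeodomain protein of type I cells, kept more of its level, with 1085, 558 and 2384 in the tumors and 24069 to 30652 in the lungs. The cultured line held only 28.1, 28.7 and 25.4 of it, so its level was higher in the grafts than in the dishes (log2 fold change 5.32, SE 0.48, adjusted p = 0.000154 by limma).

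The airway followed the alveoli. Among club and secretory genes, 12 of 13 tested were called lower, with a median of -8.12. Scgb1a1, the club cell secretoglobin, counted 6.62, 2.11 and 1.11 in the tumors and 151023, 219541 and 183536 in the lungs. Cyp2f2, the club cell cytochrome P450, averaged 17.6 ± 9.26 in the tumors and 36116 ± 6100.1 in Lung, a 2057-fold difference. Ciliated cell genes were lower in 19 of 20 cases, with a median of -5.36, or -5.13 with the genes at the floor set to their bounds. Foxj1, the master regulator of motile cilia, counted 47.7, 33.7 and 59.7 in the tumors against 4686, 5706 and 3833 in the lungs. Dnah5, an outer arm dynein of the axoneme, was at 0 in each tumor and at least 301-fold lower. Ccdc39, also a ciliary protein, missed the fold threshold at a log2 fold change of -0.63 (SE 0.14, adjusted p = 0.00798).

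Promoters of the surfactant and secretoglobin genes that were nearly silent in the tumors are shown because the factor NKX2-1 is known to act at this class of promoter. The 250 bases before the annotated start (GRCm39, strand as given) were searched for CAAGTG on both strands, a core of NKX2-1 sites, and for TATAAA on the gene's strand. Capitals mark the matches in the sequences of Sftpa1 (chr14:40853489-40853738, plus strand) and Scgb1a1 (chr19:9065327-9065576, minus strand), which were chosen after the matches were seen.
Sftpa1: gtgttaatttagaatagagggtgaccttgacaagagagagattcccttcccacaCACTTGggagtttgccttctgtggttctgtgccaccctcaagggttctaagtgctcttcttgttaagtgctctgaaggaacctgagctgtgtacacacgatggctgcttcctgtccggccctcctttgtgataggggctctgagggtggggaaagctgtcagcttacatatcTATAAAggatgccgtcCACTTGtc
Scgb1a1: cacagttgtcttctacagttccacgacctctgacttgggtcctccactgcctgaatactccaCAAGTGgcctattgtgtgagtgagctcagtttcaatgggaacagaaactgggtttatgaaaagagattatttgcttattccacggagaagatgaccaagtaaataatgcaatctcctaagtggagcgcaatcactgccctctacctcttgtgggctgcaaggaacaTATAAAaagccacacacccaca
In Sftpa1 the core lies 196 and 8 bases upstream of the start and the TATA word 24 bases upstream. In Scgb1a1 they lie 188 and 22 bases upstream. Sftpc and Sftpb held neither word in this window. The NKX2-1 core was present in 4 of 13 club genes (30.8%), 2 of 16 type II genes (12.5%) and 2 of 14 type I genes (14.3%), against 11.2% of the 14621 protein-coding promoters tested. TATAAA was present in 18.8% of type II promoters, 7.69% of club promoters, 0% of type I promoters and 4.64% of all. A match is a description of these letters and not a site or a cause.

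The factors that hold lung identity were lower as well. Of 14 lung transcription factors tested, 12 were called lower and 1 was called higher, with a median log2 fold change of -6.39. Nkx2-1, the lineage factor of lung epithelium, counted 5.30, 165 and 761 in tumors 312, 319 and 321, against 12946, 14051 and 16406 in the lungs. The log2 fold change was -7.28 (adjusted p = 0.00738), and the highest tumor held 144 times the lowest. By edgeR's quasi-likelihood test the adjusted p was 0.0105, and in limma it rose to between 0.0155 and 0.0295 when tumor 319 or any lung was left out. The cultured line averaged 2516 ± 329.9 and the small cell allografts averaged 26248 ± 2058. Foxa2, a pioneer factor of endoderm, counted 19.9, 4.21 and 159 in the tumors, 2322 to 2675 in the lungs and 3682 to 4522 in the cultured dishes. Its level was lower in the grafts than in the dishes they came from (log2 fold change -7.26, SE 1.08, adjusted p = 0.00135), whereas the related Foxa1 was 2.92-fold lower than in Lung and did not pass the test against the dishes (adjusted p = 0.363).
Tbx4 and Tbx5, the T-box factors of lung mesenchyme, were at least 1160.5-fold and at least 539-fold lower than in Lung. Tbx2 averaged 127 ± 38.2 in the tumors and 16541 ± 807 in Lung. The exception was Sox9, a factor of the embryonic lung tip and of cartilage, at 972, 5825 and 2496 in the tumors and 36.3 to 51.6 in the lungs, a 72.2-fold rise of the mean.

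Enzymes that handle foreign compounds, for which lung is a rich source, were lower in 16 of 18 tested cases. Their median log2 fold change was -6.83, or -5.97 with genes at the floor set to their bounds. Fmo2, the flavin monooxygenase of lung, counted 18.5, 11.6 and 14.4 in the tumors and averaged 37295 ± 2931 in Lung, 2514-fold apart. Cyp2b10, a cytochrome P450, was at 0 in all tumors and at least 1201-fold lower. Inmt, a methyltransferase for amines that was counted with the fibroblast list, was also nearly absent. It was at 1.32, 0 and 0 in the tumors and at 78189, 84258 and 96150 in the lungs, at least 21693-fold lower.

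Endothelial marker genes were lower in the tumors, both those of all endothelium and those of lung capillaries. All 15 pan-endothelial genes were lower, with a median of -3.32, and all 14 lung capillary genes were lower, with a median of -5.74. Pecam1, the endothelial adhesion molecule CD31, counted 2882, 1636 and 2652 in the tumors and 26063 to 28620.2 in the lungs, an 11.5-fold difference of the means. Cdh5, the cadherin of endothelial junctions, counted 3735, 2143 and 3153 in the tumors against 24545 to 29535, and 0.769 to 3.31 in the cultured dishes. Car4, a carbonic anhydrase of the aerocyte capillary, was at 6.62, 0 and 0 in the tumors and averaged 6363 ± 193 in Lung. Calcrl, the receptor of adrenomedullin, was 83.2-fold lower, and Acvrl1, the receptor ALK1, 50.7-fold lower. Cd93 was the least reduced of the capillary list, at 4.19-fold. The summed levels of the capillary genes ran from 7080 to 8632 in the tumors and from 171371 to 182312 in the lungs, and the part that cell number plays in these differences was not tested.

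Stromal genes moved in both directions. Of 15 lung fibroblast and pericyte genes, 11 were lower and 1 was higher. Npnt, nephronectin of the alveolar basement membrane, fell 52.2-fold and Itga8, its integrin receptor on alveolar fibroblasts, fell 149-fold in the ratio of means. Postn, periostin of activated fibroblasts, was the 1 that rose, with 61371, 68474 and 16993 in the tumors and 3815 to 4487 in the lungs (log2 fold change 3.30, SE 0.52, adjusted p = 0.00167). Its level in the dishes was between 2748 and 3254. Pdgfra, the receptor that marks fibroblasts in most organs, counted 10868 to 16369 in the tumors and 7902 to 8440.1 in the lungs and missed both thresholds (log2 fold change 0.67, adjusted p = 0.0108). Smooth muscle genes were lower in 9 of 10 cases, Myh11 by 91.3-fold, while Acta2 was not called (log2 fold change -0.76, SE 0.42, adjusted p = 0.158). The 6 red cell genes tested were all lower, with a median of -5.28. Heart muscle genes, also expressed in the walls of mouse pulmonary veins, summed to 13731, 10126 and 645 in CT3, CT4 and CT5, and 2 of 6 were called lower in the tumors, or 7 of 10 without CT5. Of 12 epidermal genes, 10 were at or under the floor in every tumor, and the share of skin in the grafts was not tested further.

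**Figure D2:**
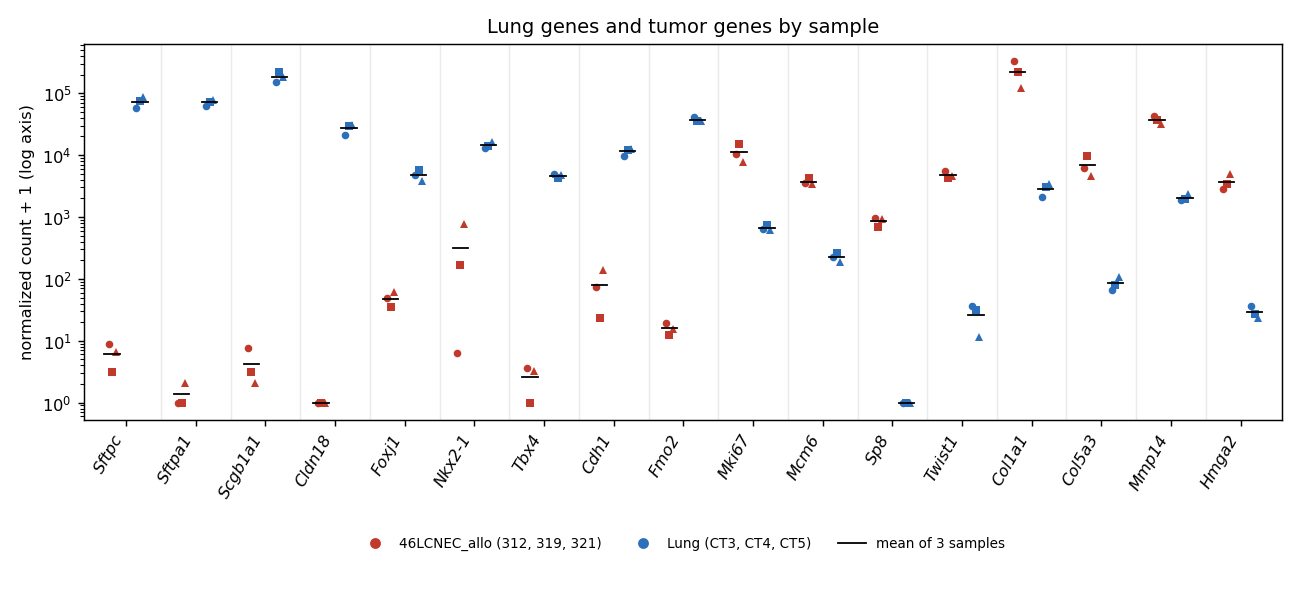
Normalized count + 1 on a log axis (y) of 17 genes (x) in each tumor (red) and each lung (blue), with circles, squares and triangles for samples in the order of the legend and a black line at the mean of 3 samples. The lung genes at the left are lower and the cycle, patterning and collagen genes at the right are higher in all 3 tumors, without overlap between groups. Tumors and lungs also did not overlap in 71.2% of all genes tested.

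Most cell cycle genes were higher in the tumors. All 29 mitosis and kinetochore genes tested were called higher, with a median log2 fold change of 4.32, and 17 of 18 genes of replication licensing were, with a median of 2.80. Prc1, Gins2 and Cdt1 are listed at 0 in all samples. Mki67, the proliferation antigen, counted 10411, 15054 and 7747 in the tumors and 639, 732 and 613 in the lungs, 16.7-fold apart. Cenpe, the kinesin of the kinetochore, rose most in its list, from 52.1 ± 10.1 in Lung to 2042 ± 222 (log2 fold change 5.28, SE 0.19, adjusted p = 6.37e-06). Cdk1, the mitotic kinase, counted 2159, 1729 and 1809.8 against 50.8, 89.8 and 49.2. Mcm6, a subunit of the replicative helicase, counted 3517, 4232 and 3439 against 228, 264 and 188. Gins4, of the GINS complex, was the 1 replication gene not called (log2 fold change 0.41, SE 0.12, adjusted p = 0.0211). No tumor overlapped any lung in the genes named that were tested, which was also so for 71.2% of all genes tested.

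In the G1/S list, 12 of 16 genes were higher and 1 was lower. Ccna2, cyclin A2, rose 40.6-fold, and E2f1 rose 6.55-fold with 3862, 3676 and 3262 in the tumors and 450.0 to 630.3 in the lungs. Ccnd2, a D-type cyclin, was the member that fell, at 449, 107 and 1273 against 4279 to 4973 (log2 fold change -3.54, SE 0.81, adjusted p = 0.00878). The Ccnd2 call was lost by edgeR (adjusted p = 0.0177) and, in limma, without tumor 312 or any lung (adjusted p between 0.0257 and 0.0345). Cdk6 was 2.18-fold higher than in Lung and 4.25 log2 units higher than in the small cell allografts, where it averaged 318 ± 67.5. E2f2, an activator E2F, counted 502 to 825 in the tumors, 886 to 1233 in the lungs and 5804 to 6229 in the small cell allografts. It was not called against Lung (adjusted p = 0.0302) and was called lower than in 57SCLC_allo (log2 fold change -3.29, SE 0.18, adjusted p = 2.5e-05). Against 57SCLC_allo, 2491 of 17502 genes tested (14.2%) were called higher in the LCNEC grafts and 2821 (16.1%) lower. Of the 29 mitosis genes, 0 were called higher and 3 were called lower in that comparison.

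Promoters of a replication gene and of mitotic genes are printed to show the elements named in the background. The same 250 bases were searched on both strands for the E2F words TTTCCCGC, TTTCGCGC, TTTGCCGC and TTTGGCGC, for the CHR word TTTGAA and for CCAAT. Capitals mark the matches in Mcm6 (chr1:128287453-128287702, minus strand), Cdk1 (chr10:69188769-69189018, minus strand) and Top2a, topoisomerase II alpha (chr11:98915042-98915291, minus strand), which were chosen after the matches were seen.
Mcm6: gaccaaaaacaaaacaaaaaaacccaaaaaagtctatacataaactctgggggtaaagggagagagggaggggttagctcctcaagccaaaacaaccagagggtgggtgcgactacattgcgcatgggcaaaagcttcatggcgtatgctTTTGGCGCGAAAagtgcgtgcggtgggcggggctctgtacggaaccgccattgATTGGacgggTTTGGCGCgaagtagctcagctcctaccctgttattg
Cdk1: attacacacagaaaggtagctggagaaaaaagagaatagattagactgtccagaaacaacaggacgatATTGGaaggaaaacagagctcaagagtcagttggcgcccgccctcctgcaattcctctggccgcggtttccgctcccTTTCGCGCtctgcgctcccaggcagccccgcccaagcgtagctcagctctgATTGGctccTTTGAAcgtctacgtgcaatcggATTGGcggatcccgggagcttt
Top2a: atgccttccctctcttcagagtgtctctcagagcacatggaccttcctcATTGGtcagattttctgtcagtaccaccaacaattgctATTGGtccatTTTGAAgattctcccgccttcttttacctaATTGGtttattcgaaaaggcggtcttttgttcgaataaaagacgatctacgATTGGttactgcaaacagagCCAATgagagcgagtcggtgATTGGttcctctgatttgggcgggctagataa
Mcm6 holds E2F words starting 100, 96 and 37 bases upstream, of which the first and second overlap on opposite strands, and a CCAAT word at 47. Cdk1 holds an E2F word at 105, the CHR word at 45 and CCAAT at 182, 54 and 22. Top2a holds the CHR word at 153 and 6 CCAAT words. E2F words were found in 4 of 18 replication promoters (22.2%), 5 of 16 G1/S promoters (31.3%) and 1 of 29 mitosis promoters (3.45%), against 2.92% of all 14621. The CHR word was found in 8 of 29 mitosis promoters (27.6%) and 2 of 18 replication promoters (11.1%), against 12.7% of all. CCAAT was found in 12 of 18 replication promoters (66.7%) and 14 of 29 mitosis promoters (48.3%), against 35.2% of all.

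Neither Rb1 nor Trp53 was called lower in the tumors. Rb1 (GRCm39 chromosome 14, 73421113 to 73563507, minus strand) counted 236, 183 and 289.8 in the tumors and 297, 247 and 329 in the lungs (log2 fold change -0.32, SE 0.22, adjusted p = 0.255). The counts cover all exons of a gene, so reads from host cells and from exons outside the deleted part are included, and the level does not check the recombined allele. Rbl1 (chromosome 2, 156987813 to 157046475, minus strand), null in the model and in the Lung donors if these share the QKO genotype, was still counted at 1172 to 1735 in the tumors and 750.4 to 872 in the lungs. Trp53 (chromosome 11, 69469669 to 69482701, plus strand) counted 968 to 1242 in the tumors and 1250.2 to 1536 in the lungs (adjusted p = 0.0599). Of the INK4 and Kip inhibitors of cyclin-dependent kinases, 2 of 6 were higher and 0 were lower. Cdkn2a (chromosome 4, 89192708 to 89212890, minus strand), which encodes p16 and p19ARF, counted 5662, 10299 and 11188 in the tumors against 185 to 214 in the lungs (log2 fold change 5.44, SE 0.26, adjusted p = 1.49e-05). Cdkn2c, which encodes p18, rose 7.20-fold. Among 20 p53 target genes, 2 were higher, 5 were lower and 13 were not called. Gtse1, a mitotic p53 regulator that is also a cycle gene, rose 30.9-fold and Phlda3 rose 2.70-fold. Fas, the death receptor, fell 5.92-fold, and Btg2, an antiproliferative immediate early gene, fell 22.4-fold with a wide range of 5936 to 40198 in the lungs.

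Most of the embryonic patterning factors listed here that could be tested, Hox genes apart, were higher in the tumors. The lists were written with earlier results of these data known, so their counts do not describe such factors as a class. Of 32 patterning homeobox genes listed, 21 could be tested. Of these, 17 were higher and 1 was lower. The median log2 fold change was 5.22, or 4.38 with genes at the floor set to their bounds. A group was at the floor in 8 of the 21, so the filter fixed the direction of those 8. Dlx2, a distal-less factor, counted 351, 509 and 243 in the tumors and 0.75, 0 and 0 in the lungs, at least 105-fold higher. Dlx3 was at least 153-fold higher, at 224, 1183 and 207, and differed from the line in culture, where it averaged 10.1 ± 1.03 (log2 fold change 5.10, SE 0.65, adjusted p = 0.000684). Lhx2 counted 642, 959.9 and 697 against 1.17 to 3.74, a 291-fold ratio of means. Barx2 went the other way, at 3.97, 0 and 6.64 in the tumors and 227, 393 and 270.4 in the lungs.

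Other patterning factors showed the same direction, 14 of 18 tested being higher and 0 lower, of 27 listed. Sp8, a zinc finger factor of limb and forebrain, counted 956, 696 and 926 in the tumors and 0 in each lung, at least 245-fold higher, and it averaged 2356 ± 183 in the dishes. Tbx15, a T-box factor of limb mesenchyme and skin, rose 335-fold. Sim2 rose 310-fold and Tbx18 rose 76.9-fold. Bnc2, a basonuclin of mesenchyme, rose 25.1-fold and was higher in the grafts than in the dishes (log2 fold change 2.57, SE 0.13, adjusted p = 1.43e-05). Sp8 and Dlx2 were lower in the grafts than in the dishes, with log2 fold changes of -1.47 and -1.57. Against the dishes, 2355 of 16375 genes tested (14.4%) were called higher in the grafts and 1383 (8.45%) lower. Of the genes called higher than in Lung, 93.5% had at least 10 normalized counts in all 3 dishes, against 80.1% of all genes tested and 53.7% of those called lower. The tumors grew from this same line, and genes called lower could pass the filter through Lung alone. Part of this contrast was thus set in advance.

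Hox genes, whose clusters encode position along the body axis, did not move as a block. Of 39 listed, 10 could be tested, of which 3 were higher and 2 were lower. The 3 risers belong to the cluster on chromosome 11. Hoxb9 counted 22.5, 17.9 and 128 in the tumors against at most 1.17 in the lungs, Hoxb8 counted 340.4, 191 and 501 against 19.9 to 25.4, and Hoxb7 counted 419, 323 and 480.1 against 77.0 to 87.8. All 3 were higher still in the small cell allografts, Hoxb8 at 4869 ± 443 and Hoxb9 at 2657 ± 352. Hoxa2 and Hoxa7, from the cluster on chromosome 6, fell 7.61-fold and 4.35-fold.

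Among oncofetal genes, expressed in the embryo and again in cancers, 9 of 16 were higher and 3 were lower. Hmga2, an architectural chromatin protein, counted 2861, 3373 and 4928 in the tumors and 22.2 to 35.9 in the lungs, 133-fold apart, and 16736 to 20683 in the dishes. Ptn, the growth factor pleiotrophin, rose from 47.1 to 74.8 in the lungs to 14748, 18180.4 and 5591 in the tumors. Crabp2, which carries retinoic acid, averaged 2779.6 ± 1430.3 against 11.1 ± 1.23. Imprinted H19 rose 38.2-fold, with 1091, 4244 and 7270 in the tumors. Mdk, Plagl1 and Peg3 fell by 1.88, 2.35 and 1.35 on the log2 scale. The calls of Mdk and Peg3 were lost when any 1 lung was left out, which left 1 gene of the list called lower. That of Mdk was also lost without tumor 312. Grem1, a BMP antagonist of mesenchyme, was among the 12 largest rises, at 9613, 5508 and 12138 against 23.4 to 70.8.

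Most fibrillar collagen genes were higher in the tumors. Of 11 fibrillar collagens, 9 were higher and 0 were lower, with a median log2 fold change of 4.87. Col1a1 counted 330665, 216112 and 122566 in tumors 312, 319 and 321 and 2105, 3024 and 3349 in the lungs (log2 fold change 6.22, SE 0.38, adjusted p = 3.26e-05). Col3a1 counted 166609, 348626 and 123018 against 3647 to 5274. The summed fibrillar collagens came to between 430549 and 905886 in the tumors, 14196 to 20561 in the lungs and 140586 to 155640 in the dishes. Col1a1 was higher in the grafts than in the dishes (log2 fold change 3.30, SE 0.34, adjusted p = 0.00028), and Col11a1, a cartilage collagen, was lower than in the dishes (log2 fold change -4.28, SE 0.70, adjusted p = 0.00213) while higher than in Lung. Whether graft cells or host fibroblasts carry the collagen transcripts cannot be told apart in these samples.

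Enzymes that modify and crosslink collagen rose with it in 19 of 24 cases, with 1 lower. P4ha3, a prolyl hydroxylase subunit, rose 41.5-fold and Fkbp10, a collagen chaperone, rose 17.8-fold. Lox, which crosslinks collagen and elastin, averaged 17150.4 ± 4191 in the tumors, 1179.6 ± 359 in Lung and 121250.5 ± 5264 in the dishes. P3h2, the prolyl hydroxylase of basement membrane collagen, was the member that fell (log2 fold change -1.37). Serpinh1, the collagen chaperone HSP47, was at 42275 in tumor 312 and at 9762 and 7787 in the other tumors, and was not called (adjusted p = 0.418).

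Basement membrane genes divided into chains that rose and chains that fell, 5 and 9 of 20. Lamb1 and Lamc1, chains of widespread laminins, rose 5.67-fold and 3.89-fold. Col4a3 and Col4a4, the collagen IV chains of the alveolar and glomerular membrane, fell 199-fold and 143-fold. Col4a4 counted 21.2, 71.6 and 42.0 in the tumors against 5905, 5985 and 7363. Elastic fibre genes divided 6 to 5. Fbln2, fibulin 2, rose 30.6-fold and Fbn1, fibrillin 1, rose 10.9-fold, while Mfap4 and Efemp1 fell 16.2-fold and 79.5-fold. Eln itself, elastin, counted 1743 to 3277 in the tumors and 2957 to 3859 in the lungs and was not called (log2 fold change -0.70, adjusted p = 0.0574).

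Matrix proteases and their inhibitors were higher in 11 of 19 cases and lower in 1. Mmp14, the membrane-anchored collagenase, counted 42709.8, 36979 and 31476 against 1869 to 2370.5, with a log2 fold change of 4.17 (SE 0.15, adjusted p = 7.18e-06). Mmp3 and Mmp13, secreted stromelysin and collagenase, were highest in tumor 312, with 19448 and 48612, against 3825 and 4703 of Mmp3 and 1442 and 3003 of Mmp13 in tumors 319 and 321. Both remained far above the lungs, where Mmp3 was at most 64.8 and Mmp13 at most 43.3. Mmp15, a membrane type metalloprotease of epithelium, fell 13.9-fold.

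Epithelial and mesenchymal programs moved apart. Of 20 genes of epithelial adhesion and keratins, 17 were lower and 2 were higher, with a median of -6.93. Cdh1, E-cadherin, counted 74.2, 22.1 and 136 in the tumors and 9697, 12251 and 12444 in the lungs. Epcam counted 10.6, 103 and 33.2 against 1549 to 1999. Krt19, a keratin of simple epithelium, averaged 13.4 ± 9.51 in the tumors, 5571 ± 829 in Lung and 6902 ± 512 in the dishes. It was present in culture and lower in the grafts (log2 fold change -9.13, SE 0.45, adjusted p = 1.24e-05). Esrp1, the epithelial splicing factor, was at least 299.9-fold lower than in Lung and Ocln, occludin, at least 464-fold. Jup, plakoglobin, was reduced only 3.90-fold.
Pkp1 and Krt14, plakophilin 1 and a keratin of stratified epithelium, were the exceptions. Pkp1 counted 673, 8954 and 966 in the tumors and at most 2.34 in the lungs, at least 1005-fold higher. Krt14 counted 1075, 72.6 and 50.9 against 0.997 to 8.19 (adjusted p = 0.00862 by limma and 0.0101 by edgeR), and its call was lost without tumor 319 or any lung (adjusted p between 0.0127 and 0.037 by limma).
The mesenchymal list had 10 of 16 genes higher and 0 lower, with a median of 1.88. Vim, vimentin, rose 3.01-fold with 63891 to 68908 in the tumors. Fn1, fibronectin, rose 22.4-fold. Twist1 counted 5547, 4317 and 4594 against 10.5 to 35.1, a 191-fold ratio of means, and S100a4 rose 42.7-fold. Cdh2, N-cadherin, rose 12.2-fold against Lung and was lower than in the dishes (log2 fold change -2.33, SE 0.19, adjusted p = 0.00011).

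Glycolysis and hypoxia genes were higher in 15 of 25 cases and lower in 2. Pkm, pyruvate kinase, counted 28952, 48499 and 39325 against 6237 to 7075. Egln3, an oxygen-sensing prolyl hydroxylase induced by hypoxia, counted 4723, 23170.5 and 3859.7 in tumors 312, 319 and 321 and 52.7 to 103 in the lungs. Car9, carbonic anhydrase IX, followed the same order of tumors, with 659.6, 3033 and 423 against 42.1 to 56.1, as did the glucose transporter Slc2a1, with 1415, 4493 and 1021 against 232 to 247. Tumor 319 was the highest of the 3 tumors in each of these genes. Without lung CT4 or without lung CT5 the list had 9 genes called higher. Hif3a, an inhibitory HIF subunit, was at least 34.0-fold lower.
Angiogenic genes, Vegfa among them, moved in both directions. Of 9 tested, 4 were higher and 3 were lower, with a median log2 fold change of 0.40. Vegfa, the growth factor of endothelium and abundant in alveolar epithelium, was lower in the tumors, at 12719, 31625 and 8976 against 53189 to 57568 (log2 fold change -1.87, SE 0.44, adjusted p = 0.00986). The Vegfa call was lost by edgeR (adjusted p = 0.0247) and, in limma, without tumor 312, tumor 321 or any lung (adjusted p between 0.0165 and 0.0382).

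Biosynthesis genes rose in part. Of 17 genes of serine synthesis and the ATF4 response, 11 were higher and 0 were lower, led by Psat1, phosphoserine aminotransferase, at 18.4-fold, and Aldh18a1, of proline synthesis, at 11.9-fold. Ribosome biogenesis genes were higher in 14 of 22 cases with a median of 1.16. Myc, which drives many of them and was counted with them, was at 2980.1, 2959 and 2883 in the tumors, 409.7 to 485 in the lungs, 6281 to 6801 in the dishes and 358 to 478 in the small cell allografts. Secretory pathway genes were higher in 10 of 22 cases, Sec24d, a coat protein that packages procollagen, by 6.01-fold. None of these 3 lists had a gene called lower. Against a null of 2-fold rather than 0, the calls fell to 4 of 22 for ribosome biogenesis and 1 of 22 for secretion, but stayed at 29 of 29 for mitosis and 9 of 11 for fibrillar collagens.

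Several transcripts that define a neuroendocrine carcinoma were at or near 0 in the grafts, while Ncam1 and Eno2 were high, so the RNA markers bore out that part of the line's label only in part. Protein was not analysed here, but the paper reports that the subcutaneous tumors stained for chromogranin A, CGRP and the thyroid transcription factor TTF-1. It also reports cells with NCAM, SSTR2 and CGRP by immunofluorescence in the lines. Of 24 neuroendocrine genes, 8 were at or under the floor in every tumor, 7 in every dish of the cultured line and 4 in every lung. Against Lung, 16 could be tested, of which 2 were higher and 8 were lower. Syp, synaptophysin, counted 5.30, 8.42 and 14.4 in the tumors, 52.7 to 62.8 in the lungs and 658 to 732 in the small cell allografts. Chgb, chromogranin B, counted 3.97, 5.26 and 6.64 against 33.9 to 49.2 in the lungs and 1994 to 2262 in 57SCLC_allo. Insm1, a zinc finger factor of neuroendocrine fate, counted 1.32, 0 and 4.43 in the tumors, 21.1 to 26.2 in the lungs and 18147 to 27716 in 57SCLC_allo. Ddc, the enzyme that makes amine transmitters, counted 19.9 to 38.9 in the tumors, 94.8 to 157 in the lungs and 7337 to 7892 in 57SCLC_allo. In that comparison, 18 of 20 neuroendocrine genes tested were lower in the LCNEC grafts, with a median log2 fold change of -9.77. Genes at or under the floor in every LCNEC graft passed that filter only through 57SCLC_allo, which fixed their direction. The median includes them and was not recomputed at their bounds. The groups did not overlap in Syp, Chgb, Insm1 or Ddc. Between tumors and lungs, the same held for 71.2% of all genes tested.
The risers were Ncam1 and Eno2. Ncam1, the neural cell adhesion molecule, counted 3058, 7384 and 4040.0 in the tumors, 71.0 to 79.8 in the lungs, 28614 to 31510.0 in the dishes and 5647 to 6376 in 57SCLC_allo. It did not pass the test against 57SCLC_allo (log2 fold change -0.42, SE 0.30, adjusted p = 0.279) and was lower than in the dishes (log2 fold change -2.73, adjusted p = 0.000332). Eno2, neuron-specific enolase, which is also a glycolytic enzyme, rose 13.5-fold and was highest in tumor 319. Stmn2, a neuronal tubulin regulator, fell 72.4-fold from 1401 ± 154 in Lung. The count of 8 lower than in Lung became 13 of 18 without tumor 321 and 4 of 16 without lung CT3 or without lung CT4.

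**Figure D3:**
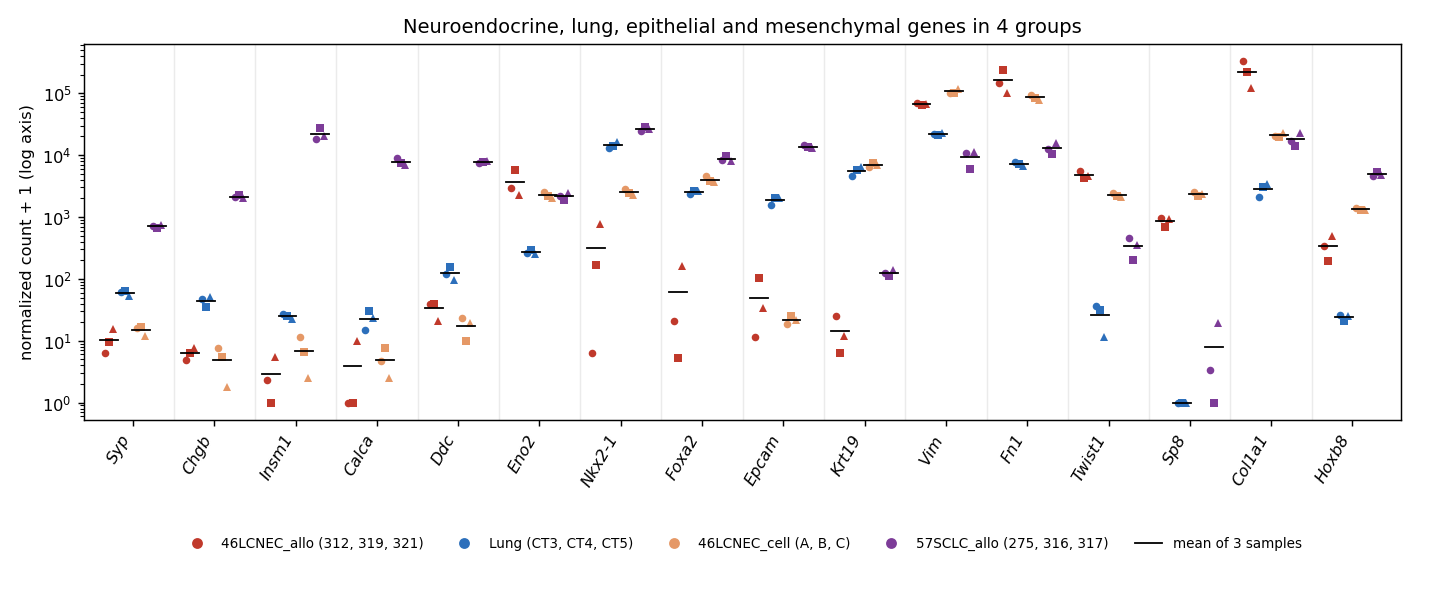
Normalized count + 1 on a log axis (y) of 16 genes (x) in 46LCNEC_allo, Lung, 46LCNEC_cell and 57SCLC_allo, with 3 points per group in the order of the legend and a black line at the mean. Syp, Chgb, Insm1, Calca and Ddc are highest in the small cell allografts, and the mesenchymal genes, Sp8 and Col1a1 lie higher in the LCNEC grafts than in Lung.

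Immune transcripts depended on the tumor. In the summed T cell list, tumor 321 held 2964 normalized counts and tumors 312 and 319 held 254 and 159, against 5065 to 5829 in the lungs. Over all 3 tumors, 1 of 14 T cell genes was called lower, Il7r, the interleukin 7 receptor (log2 fold change -3.90, SE 0.76, adjusted p = 0.00429). Without tumor 321, 13 of 14 were called lower, with a median of -5.10. When any other sample was left out, 0 or 1 were. Natural killer and cytotoxic genes changed from 2 of 11 called lower to 11 of 11 without that tumor, and to between 0 and 2 when any 1 other sample was left out. MHC class II genes changed from 1 of 8 to 7 of 8 without it, and to 0 or 1 when any 1 other sample was left out. B cell genes were called lower in 9 of 11 cases with all samples, in 11 of 11 without tumor 321, and in only 2 to 5 of 11 when any other tumor or lung was left out. Cd8a, the co-receptor of cytotoxic T cells, counted 13.2, 2.11 and 403 in tumors 312, 319 and 321 and 321 to 424 in the lungs. Cd74, the class II invariant chain, counted 2697, 1093 and 52617 against 23158 to 33257, so tumor 321 exceeded every lung and the others lay below every lung. Ciita, which switches on class II genes, counted 45.0, 25.3 and 480.1 against 227 to 276.

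Class I presentation genes had 0 of 11 called in either direction, with a median of -0.39. H2-D1, a class I heavy chain, counted 7450.3, 18158 and 41904 in the tumors against 28886 to 42463 in the lungs, again highest in tumor 321, and 4015 to 4346 in the dishes. H2 genes have near-identical copies and differ between strains, so their counts are uncertain. The peptide transporter Tap1 counted 969.5, 1759 and 3568 in the tumors and 2176 to 2839 in the lungs (log2 fold change -0.44, SE 0.44, adjusted p = 0.418).

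Macrophage genes moved in opposite directions by list, with and without tumor 321. Of 16 genes of recruited macrophages, 9 were higher and 1 was lower, with a median of 1.55. C1qa, a complement chain made by tissue macrophages, counted 16686, 11214 and 29839 in the tumors, 1957 to 2577 in the lungs, 6304 to 14066 in the small cell allografts and at most 1.54 in the dishes. Adgre1, the antigen F4/80, rose 3.81-fold and Ms4a7 rose 15.7-fold. Spp1, osteopontin, rose 8.71-fold, but the cultured line also carried it at 15062 to 22655. Gpnmb was the member that fell (log2 fold change -3.29). Alveolar macrophage genes were lower in 8 of 10 cases, with a median of -4.58, or -4.27 at the bounds. Chil3, a chitinase-like protein of alveolar macrophages, counted 5.30, 2.11 and 39.8 against 2369.7 to 3660.5, and Siglecf, their lectin, fell 29.1-fold. Mpo, a peroxidase of neutrophil precursors, rose to 21.1 to 63.6 from 3.51 to 5.23, the 1 neutrophil gene of 11 called higher, and its call was lost without lung CT4 or CT5 (adjusted p = 0.0107 by limma in each case). Cxcr2, a chemokine receptor of neutrophils, was the 1 called lower (log2 fold change -2.16, SE 0.42, adjusted p = 0.00419), and the list had 5 called lower without tumor 321 and 0 or 1 when any 1 other sample was left out.

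**Figure D4:**
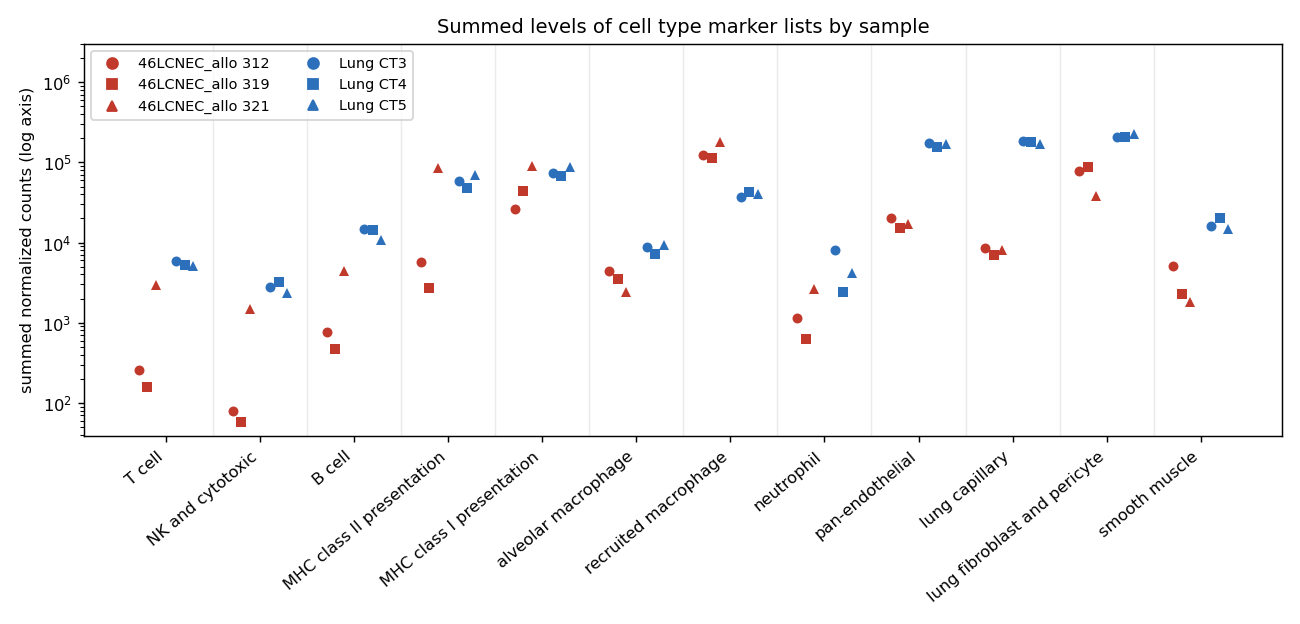
Summed normalized counts on a log axis (y) of marker lists (x) in each tumor (red) and each lung (blue), with the symbol giving the sample. Tumor 321 (red triangle) lies above the other tumors in the T cell, natural killer, B cell and MHC class II lists, and recruited macrophage sums lie above the lungs in all 3 tumors.

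The genes that differed most between the 3 tumors were taken as those with the largest ratio of the highest to the lowest tumor. Many of them were high in tumor 321. Cxcl13, the chemokine that draws B cells into follicles, counted 6.62, 8.42 and 4988 in tumors 312, 319 and 321. Jchain, the joining chain of secreted antibodies, counted 59.6, 7.37 and 4084, against 3775 to 4753 in the lungs. Crabp1, a retinoic acid carrier, counted 51.7, 24.2 and 2634, and Grik2, a glutamate receptor subunit, 5.30, 1.05 and 585. Penk, the enkephalin precursor, counted 37.1, 2.11 and 813. Tumor 312 was instead the highest in Sfrp1, a secreted Wnt inhibitor, at 470.2, 2.11 and 35.4, and in Car3, an adipocyte and muscle carbonic anhydrase, at 575, 142 and 0. These differences rest on single tumors and have no replicate. None of Penk, Grik2 and Car3 exceeded 3.84 normalized counts in a dish.

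**Figure D5:**
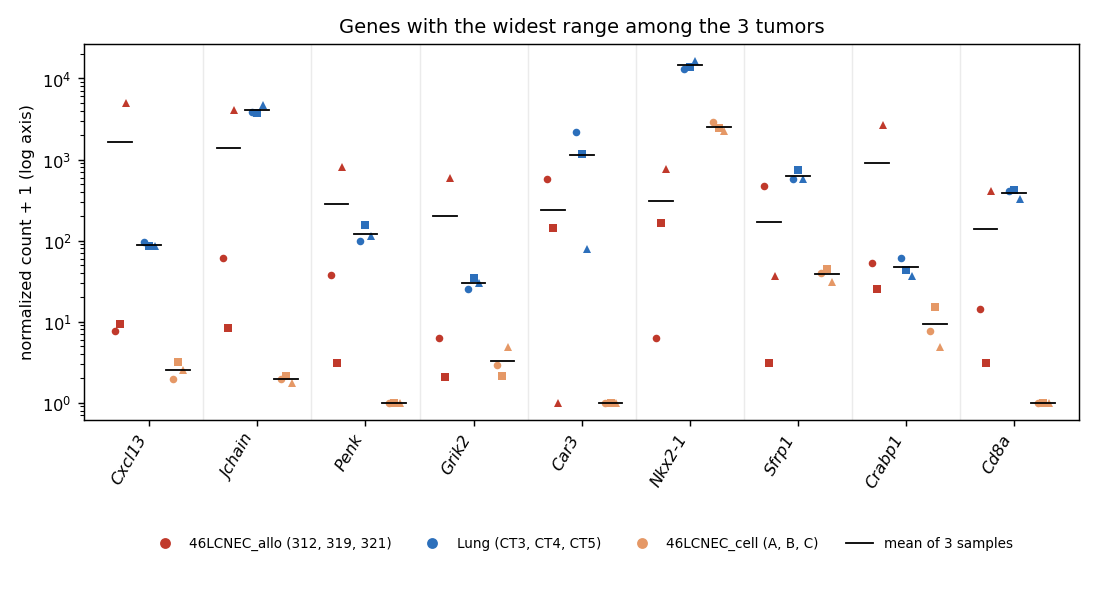
Normalized count + 1 on a log axis (y) of the genes with the widest range among the tumors (x) in 46LCNEC_allo, Lung and 46LCNEC_cell, with 3 points per group in the order of the legend and a black line at the mean. Tumor 321 (red triangle) is the highest tumor in Cxcl13, Jchain, Penk, Grik2, Crabp1, Cd8a and Nkx2-1, and tumor 312 (red circle) in Sfrp1 and Car3.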

How the data were processed

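RNA of 15 mouse samples was sequenced after poly-A selection. Per the labels and methods, the authors aligned reads with Rbowtie2 to GRCm39, assigned them to GENCODE M27 genes with featureCounts and scaled the counts with DESeq2. The deposited matrix holds this signal, counts divided by a size factor per sample, for 55359 genes. All non-zero values were whole multiples of the value of 1 read (tolerance 0.01), from which reads per sample were recovered.

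Genes that reached 10 normalized counts in 3 or more of the 6 samples were tested with limma 3.58.1 (R 4.3.3) on log2(normalized count + 1), with an intensity trend and Benjamini-Hochberg adjustment. A pseudocount of 1 understates the change of low genes. On simulated data with 3 samples a group, limma recovered 4-fold changes in 61.2% of cases and 2-fold changes in 2.99%, with 4 false calls. On the same data DESeq2 recovered 88.1% and 31.3%, with 53 false calls. Each of these folds was given to 67 of 17732 genes. Alternatives were edgeR 4.0.16 and DESeq2 1.42.0 on recovered reads, other scalings, filters and pseudocounts, and each sample left out. Tables were handled with Python 3.11.15 and pandas 2.3.3. Coordinates and promoters come from GENCODE M39. Members and gene lists were chosen with earlier results of these data known. Named genes are the deleted genes, the 12 largest rises and 12 largest falls, fixed picks from each list and the 10 genes most variable between tumors. Some named by this rule are not reported here. Other genes of the lists were named after their values were seen.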

Additional observations from a re-analysis of the deposited data

How the results depend on the processing

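The counts of genes called against Lung (2425 higher, 3987 lower) stayed within 1.5 times under edgeR, DESeq2, other scalings, filters and pseudocounts, an adjusted p of 0.05 and a fit over all 15 samples. Tested against a fold change of 2 rather than 0, they were 1126 and 2325. Leaving out 1 sample gave 2057 to 2471 higher and 3019 to 4680 lower. Against 57SCLC_allo the same gave 1965 to 2448 higher and 2153 to 3109 lower. Against 46LCNEC_cell it gave 1659 to 2585 higher and 769 to 1595 lower, with 844 lower without dish 2 and 769 without dish 3. No paired analysis was possible because the groups compared share fewer than 2 replicate labels that tie samples together. In the simulated data, 2-fold changes were mostly not recovered. Far fewer genes were changed there than were called here, so the share of real 2-fold changes that was missed was not measured. Of 144 named genes, 19 lost their call against Lung in at least 1 fit that left out a sample (adjusted p between 0.0101 and 0.0382 by limma): Nkx2-1, Foxa2, Ccnd2, Btg2, Hoxa7, Hoxb9, Mdk, Peg3, Mmp13, Krt14, Car9, Slc2a1, Vegfa, Insm1, Ddc, Il7r, Adgre1, Mpo and Cxcr2. Without tumor 312, Acta2 was called lower, and without tumor 319, Eln was. Against a fold change of 2, 22 of the 144 lost it. Of uncalled genes, 3 changed sign when a sample was left out: Fabp5 ranged from -0.65 to 0.063, Serpinh1 from -0.16 to 1.07 and Tap1 from -0.92 to 0.021 on the log2 scale. The causes were not tested.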

Other observations

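Protein-coding genes made up 14621 of the genes tested, of which 1939 were called higher and 3304 lower. Among pseudogenes the order was the other way, with 237 of 1307 higher and 94 lower, and among long non-coding RNAs 225 of 1743 were higher and 514 lower. Of the genes called higher, 130 were at or under the floor in every lung, and of those called lower, 718 were at or under the floor in every tumor.

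By chromosome, the median log2 fold change of protein-coding genes was 0.28 on chromosome 5 and 0.26 on chromosome 15, and -0.50 on chromosome 7 and -0.48 on chromosome 14. Among windows of 20 neighbouring tested genes, 1 on chromosome 13 (GRCm39, 21679393 to 23735822), which spans the large histone gene cluster, held 11 genes called higher and 1 called lower, with a median of 2.61. Histone transcripts without a poly-A tail are caught unevenly by poly-A selection. These windows and chromosomes were picked after their values were seen.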
